A study of Homo sapiens with 15 samples.

Results

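Forkhead genes encode transcription factors that share a winged-helix DNA-binding domain, and 10 of them were followed here: FOXQ1, FOXA1, FOXA2, FOXC1, FOXD1, FOXE1, FOXM1, FOXN2, FOXO1 and FOXO3. The members were every probe whose RefSeq accession belonged to 1 of these genes, which gave 13 probes for 10 of the 19483 genes with such a probe on the array. All 10 genes were above background on all 15 arrays. The genes were chosen by their measured green-channel signal in the NCE arrays against the CYGB+ arrays, so the members' differences are a description, and where a member is said to be called, that is its place in the fit across all probes and no independent evidence.

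The cells were PE/CA-PJ41, an established human oral squamous carcinoma line, carrying the pCMV6-Neo plasmid, in which a viral promoter drives the insert and a resistance gene allows selection in G418. Per the labels, NCE samples carried the empty vector and stand for cells without cytoglobin, and CYGB+ samples carried the human cytoglobin cDNA. The study's text also calls its NCE control un-transfected, so whether both groups went through transfection and selection is not settled by the sources used here. The labels put every sample in the green channel (Cy3), which was used here, while the study's methods put control RNA in Cy5 and CYGB+ RNA in Cy3. If the methods hold for these arrays, the green signal of an NCE array would not be that of NCE RNA, so each NCE value below is that of the green channel of an array labelled NCE. Stable clones were picked with cloning rings, and the methods describe 1 CYGB+ clone, so a difference between the groups cannot be told apart from a difference between clones. RNA was taken after 24 hours in fresh medium, on 3 occasions in each group, and hybridised on 3 arrays per NCE extract and 2 per CYGB+ extract. That made 9 NCE and 6 CYGB+ arrays, averaged to 3 biological replicates in each group. Nothing in the labels places the 3 extracts of a group in separate clones, so the spread between replicates may be partly technical.

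Forkhead factors bind related sites in promoters and enhancers. The FOXA factors open closed chromatin in endoderm and its epithelia, FOXQ1 is a factor of epithelia and hair follicles often studied in epithelial to mesenchymal change, and FOXE1 is known from thyroid and palate development. FOXM1 drives genes of mitosis, and the FOXO factors switch on arrest, antioxidant and autophagy genes when insulin and AKT signalling is low.

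The 250 bases before the annotated start of 3 members are shown because FOXQ1 and FOXE1 differed between the groups, while FOXC1, which shares chromosome 6p25 with FOXQ1, had overlapping groups. They come from RefSeq (GRCh38.p14), read in the direction of the gene, with CCAAT boxes (CCAAT or its reverse ATTGG) and GC boxes (GGGCGG or its reverse CCGCCC) in capitals. The FOXQ1 stretch is chr6:1311848-1312097 (plus strand), that of FOXE1 is chr9:97852976-97853225 (plus strand), and that of FOXC1 is chr6:1609665-1609914 (plus strand).
FOXQ1: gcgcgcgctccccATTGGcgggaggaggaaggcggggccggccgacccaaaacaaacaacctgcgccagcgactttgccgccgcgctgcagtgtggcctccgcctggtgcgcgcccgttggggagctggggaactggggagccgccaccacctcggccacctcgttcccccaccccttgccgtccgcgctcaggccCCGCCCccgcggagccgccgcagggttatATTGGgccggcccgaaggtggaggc
FOXE1: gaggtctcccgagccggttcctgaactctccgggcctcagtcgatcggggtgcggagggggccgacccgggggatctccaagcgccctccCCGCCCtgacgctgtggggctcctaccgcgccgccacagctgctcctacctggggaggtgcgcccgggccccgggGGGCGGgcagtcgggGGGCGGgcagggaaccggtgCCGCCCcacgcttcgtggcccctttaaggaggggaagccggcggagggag
FOXC1: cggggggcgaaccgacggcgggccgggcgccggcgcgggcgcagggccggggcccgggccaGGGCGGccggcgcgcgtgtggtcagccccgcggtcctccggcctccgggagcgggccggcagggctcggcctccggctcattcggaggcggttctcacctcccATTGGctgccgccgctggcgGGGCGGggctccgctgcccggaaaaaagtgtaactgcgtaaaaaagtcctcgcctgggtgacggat
FOXQ1 held 2 CCAAT boxes and 1 GC box, FOXE1 held 4 GC boxes and no CCAAT box, and FOXC1 held 1 CCAAT box and 2 GC boxes. Over all 35116 promoter stretches of the same length, 32.0% held a CCAAT box and 42.6% a GC box on either strand. None of the 3 held TATAAA or its reverse TTTATA (found in 3763 of the 35116 stretches). They also lacked TGTTTA and its reverse TAAACA (3860 of 35116), the only form of the forkhead core that was searched. G and C made up 74.0% of the FOXQ1 stretch, 75.6% of that of FOXE1 and 76.8% of that of FOXC1, beside a median of 58.0% over all stretches. Of the 10 members, 7 had an entry in the promoter table, all but FOXA2, FOXM1 and FOXN2.

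The cytoglobin gene itself did not check the labels. The CYGB probe read 11.87, 12.16 and 11.94 in the 3 NCE replicates and 11.36, 12.42 and 11.96 in the 3 CYGB+ replicates, in normalised log2 signal, a difference of -0.07 ± 0.25 (SE; limma adjusted p = 0.87). Although NCE stands for cells without cytoglobin, all 18 NCE spots of the probe were well above background. Their raw signals were 2893 to 5946.5, beside 2088 to 6759.5 in the 12 CYGB+ spots. What the probe detects in NCE was not tested. Where this probe lies relative to the inserted cDNA is not given in the sources used here, so every direction below rests on the sample labels. The groups were also tied to slides: slide 1 held 8 NCE arrays, and slide 2 held the remaining NCE array (replicate 1) with all 6 CYGB+ arrays. Array CYGB+ replicate 1, array 1 stood apart, with a median correlation of 0.916 to the other arrays, followed by NCE replicate 3, array 2 (0.965) and CYGB+ replicate 3, array 2 (0.967), while the other 12 arrays had 0.974 to 0.982. Between 48.9% and 57.3% of probes were above background on each array. All 12 squamous keratinocyte markers were above background on every array, with a summed log2 level of 17.27 to 17.39 in NCE and 17.20 to 17.46 in CYGB+, and of these KRT6A alone fell (-0.51 ± 0.11, adjusted p = 0.0278), with a difference of 0.01 within slide 2. Of 7 fibroblast markers, COL3A1, LUM, PDGFRB and THY1 were above background on no array, whereas the summed level was 9.26 to 9.37 in NCE and 8.90 to 8.98 in CYGB+ and COL1A2 fell (-1.33 ± 0.11, adjusted p = 0.00287). VWF, MLANA and TYR were above background on no array, and CD68, CD79A and PMEL were above it on all 15. The part of these marker genes in the forkhead results was not tested.

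FOXQ1 and FOXA2 stood well below their NCE level in the samples labelled CYGB+, FOXE1 was moderately lower, and the remaining 7 genes did not pass the threshold in the main fit. FOXM1 was called higher once spots that disagreed with the others of their probe were left out, an alternative chosen after seeing the data. Of the 10 genes, 3 were called lower and 0 higher at an adjusted p under 0.05 (limma, Benjamini-Hochberg over 19791 probes), where 13.7% of all 12128 genes tested were called, 6.49% higher and 7.26% lower. Over all probes 12% were called, 5.88% higher and 6.15% lower. The median difference of the 10 genes was -0.26, beside 0 over all probes, and 4 of the 10 had groups that did not overlap, beside 37.1% of all genes. The genes were chosen with this contrast in view, so nothing is read from these shares.

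**Figure D1:**
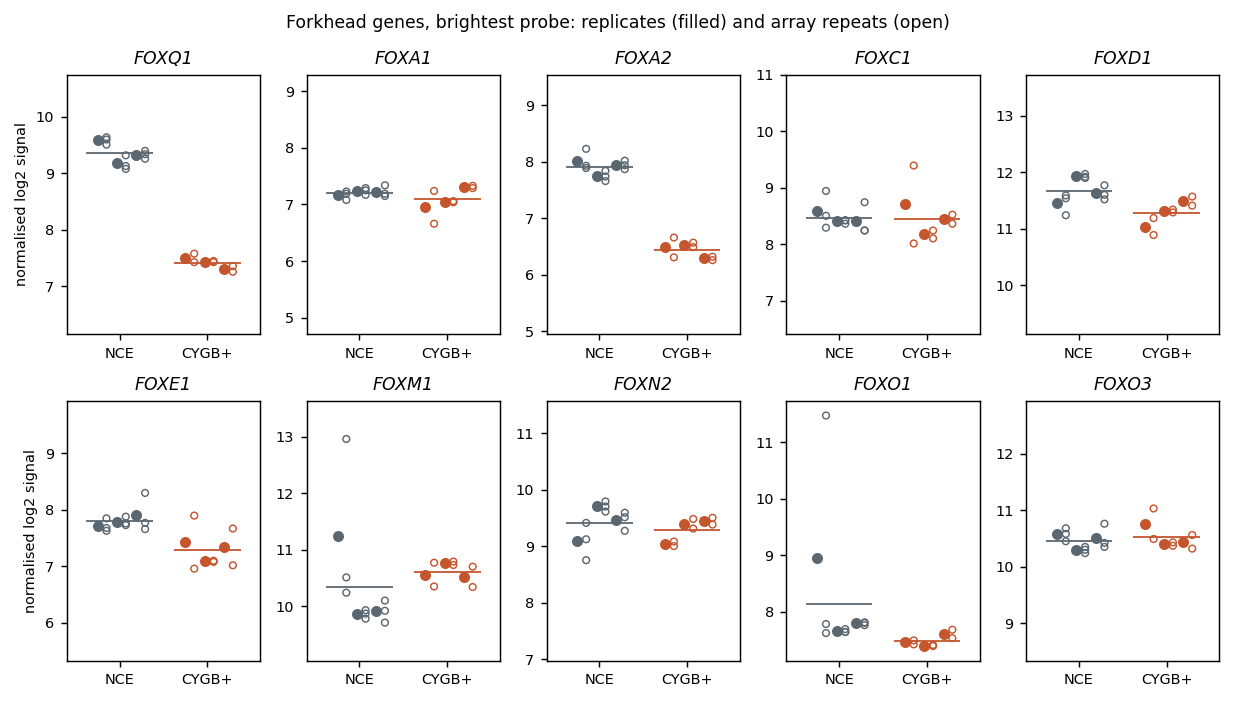
Normalised log2 signal (y axis) of the brightest probe of each of the 10 forkhead genes in samples labelled NCE (grey) and CYGB+ (orange); filled points are the 3 biological replicates, open points their array repeats and bars the group means, and every panel spans the same number of log2 units around its own centre. FOXQ1 and FOXA2 are separated by a wide gap on every array, and 1 array of NCE replicate 1 lies far above the rest for FOXM1 (12.96) and FOXO1 (11.47).

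FOXQ1, the epithelial factor, had the largest difference of the 10. Its normalised log2 signal was 9.58, 9.17 and 9.33 in the 3 NCE replicates and 7.51, 7.44 and 7.31 in the 3 CYGB+ replicates. The groups did not overlap, and the gap was many times the spread within either. The difference was -1.95 ± 0.13 (CYGB+ minus NCE, SE, n = 3 per group), a level 3.85-fold higher in NCE, and FOXQ1 ranked 6 from the lowest among the 12128 genes tested. Replicates of the same number, which are not known to be pairs, differed by -2.07, -1.74 and -2.03. On single arrays FOXQ1 ran from 9.08 to 9.64 in NCE (median 9.34) and from 7.26 to 7.58 in CYGB+ (median 7.43), with an SD of 0.09 between repeats of 1 extract. The probe had 1 spot per array, whose raw signal was 471 to 859 in NCE and 111 to 164 in CYGB+.

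Slide 2 held a single NCE array, so a comparison within it has no replicate check on the NCE side, and its error is borrowed from the CYGB+ replicates and the other probes. That array read 9.64, the highest of the NCE arrays, beside a mean of 9.55 for the other 2 arrays of that extract on slide 1. The 6 CYGB+ arrays on slide 2 read 7.26 to 7.58. Within slide 2 the FOXQ1 difference was -2.22 ± 0.20, and with the slide as a block it was -2.15 ± 0.16. In all 20 alternatives that gave a value the difference was negative, between -2.45 and -1.84.

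FOXA2, a pioneer factor of liver, lung and other endodermal epithelia, followed the same pattern. Its normalised log2 signal was 8.02, 7.75 and 7.94 in NCE and 6.48, 6.53 and 6.29 in CYGB+. Again no CYGB+ replicate reached an NCE replicate, and the array ranges (7.66 to 8.23 and 6.26 to 6.66) were apart as well. The difference was -1.47 ± 0.12, a level 2.77-fold higher in NCE, and FOXA2 ranked 22 from the lowest among the same genes. Same-numbered replicates, not known to be pairs, differed by -1.53, -1.22 and -1.65.

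The size of the FOXA2 difference depended on how the background was handled. Its 12 CYGB+ spots had raw signals of only 40.0 to 53.0, on arrays with a median background of 37 to 43, and 11 of the 12 were well above background. The 18 NCE spots had raw signals of 155 to 325. The main processing adds an offset of 50 to every signal, which draws dim values together. With the scanner's processed signal and scaling to the 75th percentile of each array, FOXA2 differed by -3.02, or 8.14-fold, and FOXQ1 by -2.44, or 5.44-fold. Within slide 2 the FOXA2 difference was -1.80 ± 0.20 and with the slide as a block -1.78 ± 0.16, and it was negative in all 20 alternatives. The NCE array on slide 2 read 8.23, above every NCE array on slide 1, beside a mean of 7.91 for the same extract there.

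**Figure D2:**
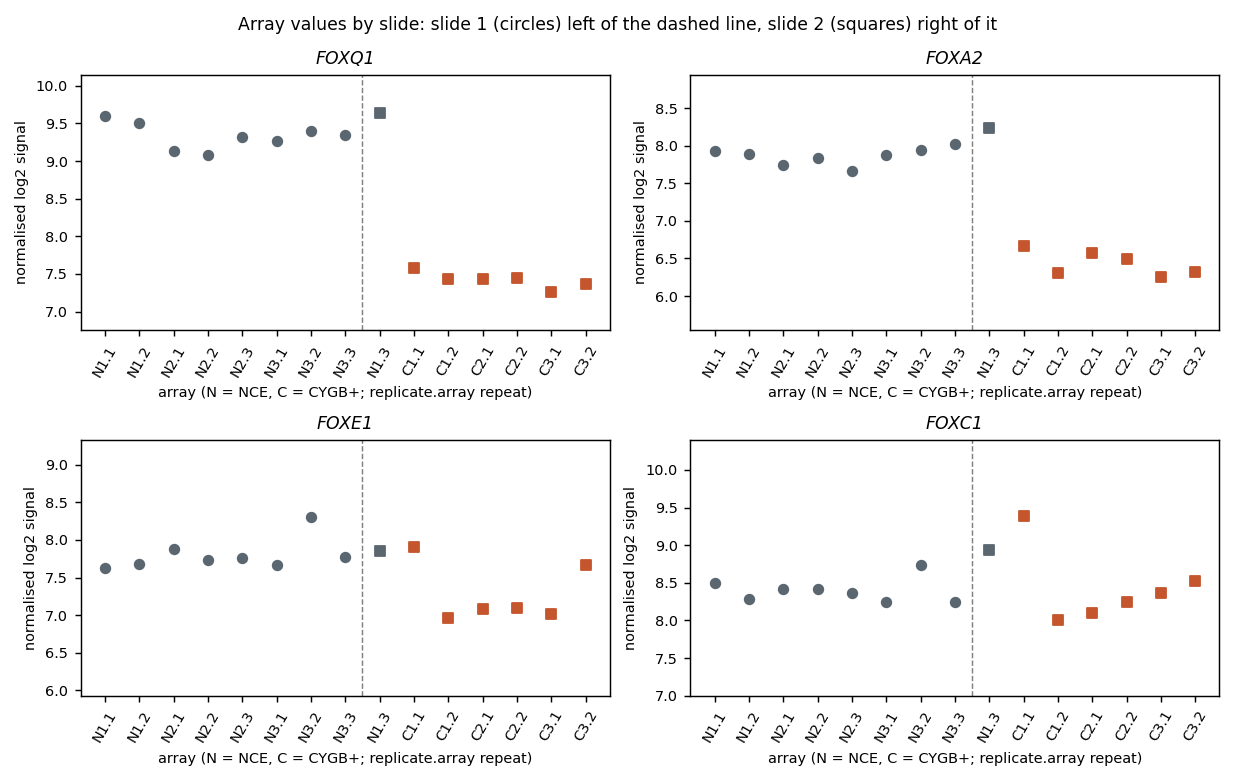
Normalised log2 signal (y axis) of FOXQ1, FOXA2, FOXE1 and FOXC1 on each of the 15 arrays (x axis; grey NCE, orange CYGB+; circles slide 1, squares slide 2). The NCE array on slide 2 reads 9.64 for FOXQ1, 8.23 for FOXA2 and 8.94 for FOXC1, in each case the highest NCE value. For FOXC1, CYGB+ replicate 1, array 1 reads 9.39.

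The profiles of FOXQ1 and FOXA2 over the 6 samples resembled each other closely. Among 12127 other genes, the 3 with the highest correlation to FOXQ1 were FMNL3, a formin of the actin skeleton (r = 0.9993), LPCAT3, a lysophospholipid acyltransferase (r = 0.9979), and FOXA2 (r = 0.9975). The 3 nearest to FOXA2 were LPCAT3 (r = 0.9981), IDH2, the mitochondrial isocitrate dehydrogenase (r = 0.9977), and FOXQ1 (r = 0.9975). These 6 points form 1 cluster per group, so the correlations mostly describe a gap between the groups, and 29 genes passed 0.99 with FOXQ1 and 34 with FOXA2. FMNL3 differed by -0.44, LPCAT3 by -0.64 and IDH2 by -0.73.

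FOXE1, the thyroid and palate factor, read 7.72, 7.79 and 7.91 in NCE and 7.43, 7.09 and 7.35 in CYGB+. The groups did not overlap, and the difference was -0.52 ± 0.12, or 1.43-fold. Array repeats of FOXE1 were less even than those of FOXQ1, with an SD of 0.32. The CYGB+ arrays read 7.90 and 6.96 in replicate 1, 7.08 and 7.10 in replicate 2 and 7.02 and 7.67 in replicate 3, and the 2 high values came from the CYGB+ arrays that stood apart. Without the 3 arrays that stood apart, the FOXE1 difference was -0.72 ± 0.08. Within slide 2 it was -0.56 ± 0.22, and with the slide as a block -0.61 ± 0.33.

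FOXC1, a factor of mesenchyme and eye development, read 8.58, 8.40 and 8.41 in NCE and 8.70, 8.17 and 8.44 in CYGB+. The groups overlapped and the difference was -0.02 ± 0.15. One array set the highest CYGB+ value: CYGB+ replicate 1 read 9.39 on array 1 and 8.01 on array 2, and without array 1 the FOXC1 difference was -0.25. With the slide as a block it was -0.50 ± 0.37, and the NCE array on slide 2 (8.94) was above all 8 on slide 1.

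FOXD1, known from kidney stroma, read 11.45, 11.93 and 11.63 in NCE and 11.04, 11.32 and 11.49 in CYGB+. CYGB+ replicate 3 lay above NCE replicate 1, so the groups overlapped, and the difference was -0.39 ± 0.16. Within slide 2 it was 0.04 ± 0.24, and the NCE array there read 11.24, the lowest of the 9 NCE arrays. FOXA1, the close relative of FOXA2 that acts with steroid receptors, read 7.17, 7.24 and 7.23 in NCE and 6.95, 7.05 and 7.31 in CYGB+. These groups overlapped too, and the FOXA1 difference was -0.11 ± 0.12, although the probe was printed in 10 spots per array. The test of a difference between FOXA1 and FOXA2 was not made, since both belong to the chosen list.

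**Figure D3:**
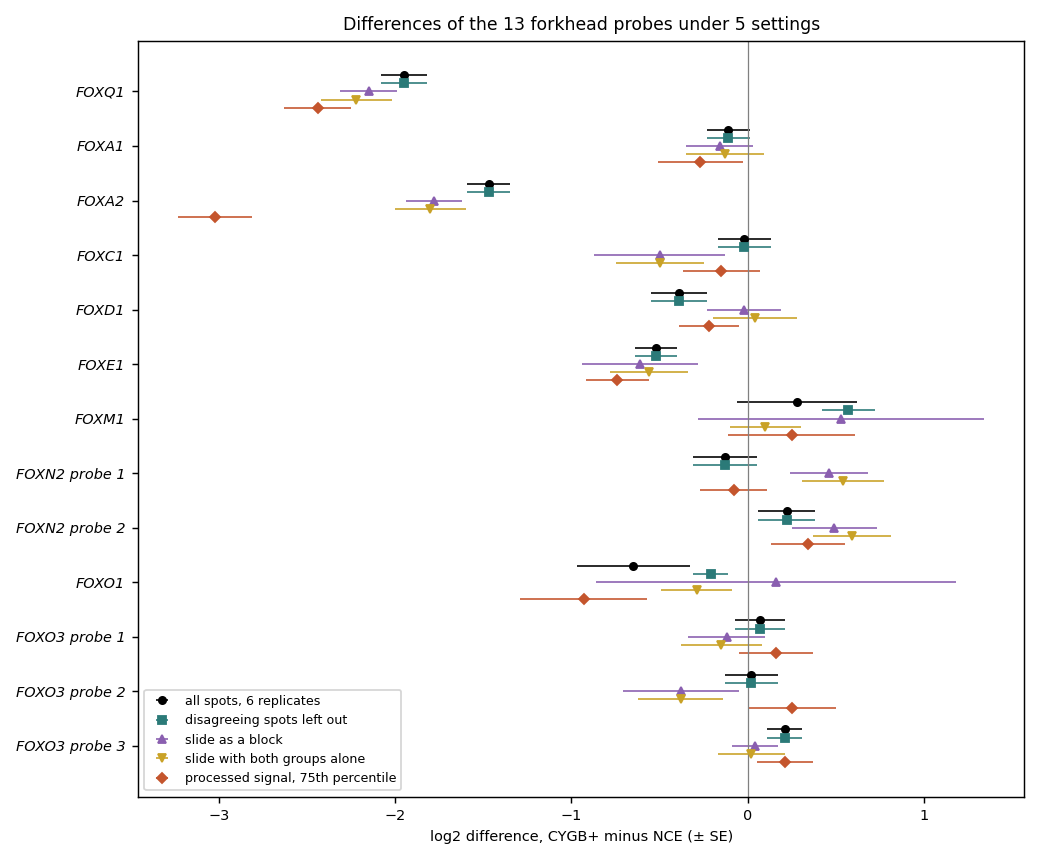
Log2 difference, CYGB+ minus NCE (x axis, points ± SE), of the 13 forkhead probes (y axis) under 5 settings, given by marker shape and colour. FOXQ1 and FOXA2 stay far below 0 in all 5, FOXA2 moving to -3.02 with the processed signal, whereas FOXM1 and FOXO1 move when a disagreeing spot is left out.

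FOXM1, the mitotic factor, read 11.23, 9.86 and 9.91 in NCE and 10.56, 10.76 and 10.52 in CYGB+. NCE replicate 1 lay above every other sample and the difference was 0.28 ± 0.34. That value came from 1 spot: on NCE replicate 1, array 1, the 2 FOXM1 spots had raw signals of 1340 and 68368.5, while every other NCE spot of the gene lay between 717 and 1620.5 and the CYGB+ spots between 1217 and 1995.5. The scanner software had not marked the spot as an outlier. Left out, as an alternative chosen after seeing the data, NCE replicate 1 read 10.35 and the FOXM1 difference became 0.57 ± 0.15. In that setting FOXM1 was called higher, and 4 of the 10 members were called. Within slide 2 the difference was 0.10 ± 0.20.

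Of 22 mitotic genes that FOXM1 is known to drive, all tested, 0 rose, 3 fell and 19 did not pass, a share near the 13.7% of all genes called, with 15 of the 22 differences negative and a median of -0.16 (0 over all probes). AURKA, the centrosome kinase, fell by 0.76 on the log2 scale (SE 0.16, adjusted p = 0.0271), from 11.86, 11.54 and 11.40 in NCE to 10.59, 10.91 and 11.02. CDK1, the kinase that starts mitosis, fell by 0.62 (SE 0.12, adjusted p = 0.019), from 11.20, 11.23 and 11.27 to 10.54, 10.49 and 10.82. CDCA8, a subunit of the chromosomal passenger complex, fell by 0.49 (SE 0.12, adjusted p = 0.0407), from 12.56, 12.36 and 12.21 to 11.91, 11.80 and 11.97, and its difference ran from -0.57 to -0.27 over 21 alternatives. In all 3 genes the groups did not overlap, which held for 37.1% of all genes tested. That largely follows from their passing the threshold on the same values and is no further evidence. Genes such as CCNB1 (0.05, adjusted p = 0.871) and PLK1 (0.01, adjusted p = 0.986) had differences near 0, and a dimmer probe of NEK2, a centrosome kinase, was called lower (-0.47, adjusted p = 0.0379), where the brightest gave -0.38. None of the 3 genes was called with the processed signal at the 75th percentile, in either slide setting, without any 1 of the NCE replicates, or by the methods' t-test.

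**Figure D4:**
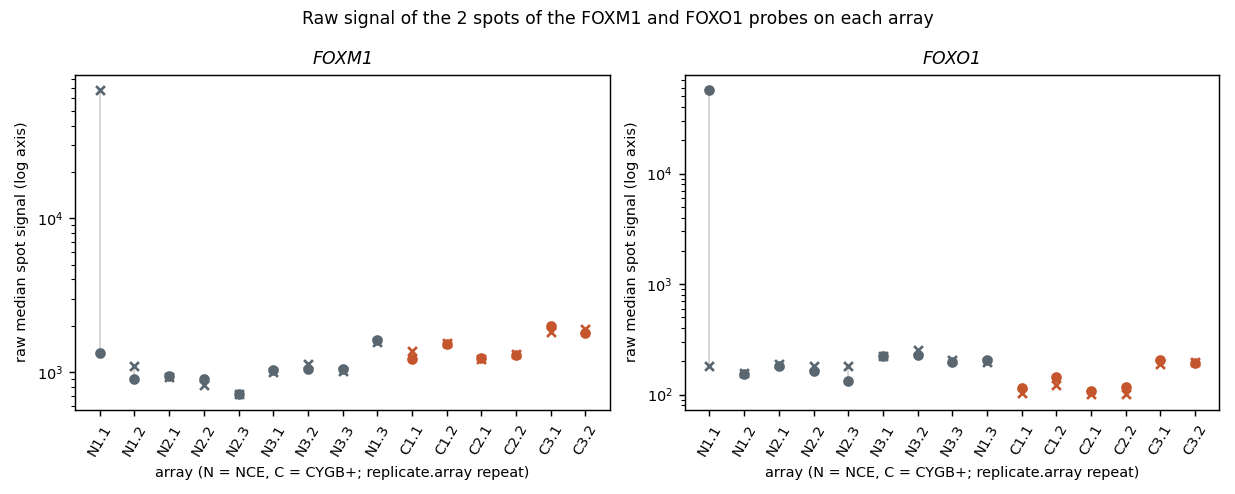
Raw median signal (y axis, log scale) of both spots of the FOXM1 and FOXO1 probes on each array (x axis; grey NCE, orange CYGB+), joined by a line. On every array but NCE replicate 1, array 1, the spots lie together; there 1 spot reads 68368.5 for FOXM1 and 57442.5 for FOXO1.

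FOXO1, which acts on metabolism and arrest, read 8.96, 7.66 and 7.79 in NCE and 7.45, 7.40 and 7.60 in CYGB+. The groups did not overlap and the difference was -0.65 ± 0.32. The same array was behind the high NCE value, with raw signals of 57442.5 and 181 in the 2 FOXO1 spots. Without the brighter spot, NCE replicate 1 read 7.65 and the difference shrank to -0.21 ± 0.10, or 1.16-fold. With the slide as a block FOXO1 had a difference of 0.16 ± 1.02, whose error covers either direction. Over the whole data 55 spots disagreed by more than 8-fold with the other spots of their probe on the array and with the probe's median, of which 19 lay on this array and 20 on NCE replicate 2, array 2.

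FOXO3, the related factor of stress and lifespan, was measured by 3 probes. The brightest read 10.57, 10.30 and 10.51 in NCE and 10.76, 10.40 and 10.44 in CYGB+, a difference of 0.07 ± 0.14. The other probes gave 0.02 ± 0.15 and 0.21 ± 0.10, and only the dimmest had groups that did not overlap (7.49, 7.40 and 7.33 against 7.57, 7.69 and 7.60). FOXN2, a less studied member of the family, had probes of opposite sign. The brighter gave 9.09, 9.70 and 9.46 in NCE and 9.04, 9.40 and 9.44 in CYGB+ (-0.13 ± 0.18), and the dimmer 8.22, 8.72 and 8.58 against 8.91, 8.58 and 8.68 (0.22 ± 0.16). Within slide 2 both FOXN2 probes were higher in CYGB+, by 0.54 ± 0.23 and 0.59 ± 0.22.

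Genes known as FOXO targets moved in both directions. Of 24 listed, 19 were tested, 2 rose, 2 fell and 15 did not pass, with a median difference of 0.07. Among all genes tested 13.7% were called, 6.49% higher and 7.26% lower. GADD45A, a stress gene of growth arrest, rose by 0.86 ± 0.14 (adjusted p = 0.0127), from 11.51, 12.05 and 11.76 in NCE to 12.67, 12.59 and 12.65. GABARAPL1, an autophagosome protein, rose by 0.57 ± 0.14 (adjusted p = 0.0411), from 9.77, 9.75 and 10.10 to 10.64, 10.36 and 10.32. KLF2, a zinc finger factor, fell by 0.77 (SE 0.12, adjusted p = 0.0105), from 9.23, 9.23 and 8.92 to 8.41, 8.39 and 8.27. CAT, the antioxidant enzyme catalase, fell by 0.67 (SE 0.16, adjusted p = 0.0341), from 9.49, 9.12 and 9.10 to 8.68, 8.70 and 8.33. In each of the 4 the groups were apart, as they were in 37.1% of all genes tested. For genes picked by the threshold this too is no further evidence. The cell cycle inhibitors CDKN1A (0.21, adjusted p = 0.418) and CDKN1B (-0.30, adjusted p = 0.159) did not pass.

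Of 17 regulators of the FOXO factors, 16 were tested and 0 were called by limma or by the methods' t-test, with 5 at an unadjusted p under 0.05 and a median of 0.03 over the brightest probes. A dimmer probe of AKT2 was called higher (0.46, adjusted p = 0.0234), where the brightest gave 0.14. IGF1R, a growth factor receptor upstream of the FOXO factors, differed by 0.35 ± 0.10 (adjusted p = 0.0566). FOXO4, listed here and among the forkhead genes, did not pass the filter.

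A further list held partners and classic targets of the FOXA factors. Of 21 listed, 11 did not pass the filter, among them the liver genes ALB, TTR and APOB. Of the 10 tested 0 rose, 1 fell and 9 did not pass, with a median of 0.05, beside 13.7% of all genes called. GRHL2, an epithelial transcription factor, fell by 0.59 (SE 0.14, adjusted p = 0.032), from 8.80, 9.07 and 8.69 to 8.13, 8.42 and 8.23. With the slide as a block the GRHL2 difference was -0.05, and within slide 2 it was -0.09. With the replicate number as a block AFP, the fetal liver protein, was called as well (0.59 in both fits).

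Of 16 genes linked with FOXQ1, most from work on epithelial to mesenchymal change, 10 were tested. By their brightest probes 0 rose, 1 fell and 9 did not pass, with a median of -0.08, beside 13.7% of all genes called. A dimmer probe of WNT3A, a Wnt ligand, was called higher (0.83, adjusted p = 0.00528), where the brightest gave 0.29 (adjusted p = 0.188). VIM, the intermediate filament vimentin of mesenchymal cells, fell by 0.97 (SE 0.22, adjusted p = 0.0305), from 12.36, 12.91 and 12.26 to 11.22, 11.52 and 11.87. CDH1, the epithelial cadherin, differed by -0.26 (adjusted p = 0.231), and its groups overlapped. SNAI2, a repressor of CDH1, read 8.96, 9.49 and 9.41 in NCE and 8.13, 8.69 and 9.13 in CYGB+ (-0.64, adjusted p = 0.15) and was called lower with the replicate number as a block, which made 2 lower genes.

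**Figure D5:**
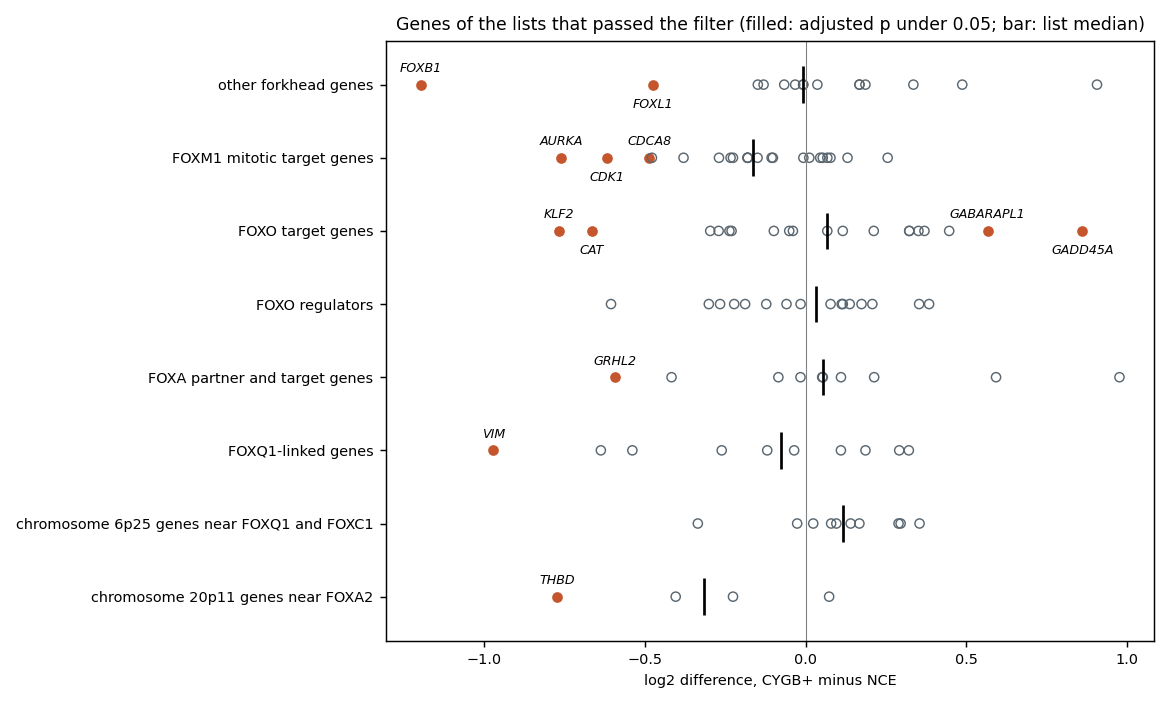
Log2 difference, CYGB+ minus NCE (x axis), of each gene that passed the filter in 8 lists (y axis); filled points are the genes past an adjusted p of 0.05, open points the others, and black bars the list medians. The list medians lie between -0.32 and 0.12, and each list has at most 4 filled points.

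Beyond the 10 members, the array held RefSeq probes for 33 of 35 other forkhead genes, and 15 of these passed the filter. In that set 0 rose, 2 fell and 13 did not pass, beside 13.7% of all genes called. The median was -0.01, and 4 of the 15 had an unadjusted p under 0.05. FOXB1, a factor of the developing brain, fell by 1.20 (SE 0.19, adjusted p = 0.0109), from 8.76, 8.55 and 8.96 to 7.94, 7.27 and 7.47. With the slide as a block the FOXB1 difference was -0.44. FOXL1, a factor of the gut mesenchyme, fell by 0.47 (SE 0.09, adjusted p = 0.0209), from 6.96, 6.85 and 6.85 to 6.39, 6.40 and 6.43, and was above background on 9 of 9 NCE and 5 of 6 CYGB+ arrays. It therefore passed the filter only through NCE, the group where it was higher, so its call is not independent of the filter. Over 20 alternatives the FOXL1 difference ran from -1.60 to -0.44. FOXP4 had the highest difference, 0.91 ± 0.29 (adjusted p = 0.0844), and was called higher with the replicate number as a block, while its other probe gave 0.14. The methods' t-test called 1 of the 15 after Benjamini-Hochberg adjustment.

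Genes near FOXQ1 and FOXA2 on their chromosomes were listed as well. On chromosome 6p25 the order in RefSeq runs from FOXQ1 through FOXF2 to FOXC1 and GMDS. Of 15 genes there 10 were tested and 0 were called by limma or by the methods' t-test, with 1 at an unadjusted p under 0.05. That count is over the brightest probe of each gene, and a dimmer probe of DUSP22, a phosphatase, was called higher (0.50, adjusted p = 0.0223), where the brightest gave 0.35. FOXF2 differed by 0.17 ± 0.11 and GMDS by -0.03 ± 0.17. On chromosome 20p11, LINC00261, the noncoding gene next to FOXA2, was above background on no array. Of 10 genes there 4 were tested and 1 was called, beside 13.7% of all genes. THBD, the anticoagulant receptor thrombomodulin, fell by 0.77 (SE 0.19, adjusted p = 0.0408), from 11.52, 11.03 and 11.33 to 10.89, 10.31 and 10.37. A dimmer probe of GZF1 was called lower (-0.53, adjusted p = 0.0277), where the brightest gave -0.23.

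In the 8 lists together 12 genes were called, 2 higher and 10 lower, of 105 tested. Over all 12128 genes tested 13.7% were called, 6.49% higher and 7.26% lower. These shares stand beside the count of each list, so no count is read as a response of its list. With the slide as a block 4 of the 12 were still called in the same direction (GADD45A, CAT, KLF2 and THBD), and all 12 kept their sign. Without NCE replicate 1, 2 or 3 in turn, 3, 2 and 1 of the 12 were still called, and without CYGB+ replicate 1, 2 or 3 in turn, 8, 6 and 6. With the replicate number as a block all 12 were called.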

How the data were processed

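The members and gene lists were chosen with earlier results of these data known. Agilent SurePrint G3 Human 8x60K arrays carried 42405 non-control probes. Per the file headers, the authors read them with Feature Extraction 10.7.3.1, which gave the spot intensity and background deposited in the scanner files. Per the labels every sample was in the green channel, so the red was not used, while the methods name Cy5 for control RNA. The deposited series table holds natural log values of 15040 probes, 15031 of them matched. Its column medians run from -0.16 to 0.18, and its scaling per array and filter are not given in the sources used here.

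In R 4.3.3, normexp (offset 50) was run on spot medians, since the mean signal planned was not among the columns. Outlier-flagged and control spots were dropped, arrays were quantile normalised, and spots of a probe, then arrays of a replicate, were averaged on the log2 scale. Probes well above background on every array of at least 1 group were kept, and limma 3.58.1 compared 3 with 3 replicates with Benjamini-Hochberg adjustment at 0.05. An array counts a probe as above background where at least 50% of its spots are. The brightest RefSeq probe stood for a gene, and symbols came from RefSeq for 25422 probes. The text names all members, CYGB, up to 4 called genes per list and direction, called forkhead genes, and the 3 genes nearest to FOXQ1 and FOXA2. One listed gene is not reported here. Other genes named were chosen after their values were seen. Dimmer probes of listed genes were named mostly because they were called, and 12% of all probes were called. Same-numbered replicates of the groups deviated together (r = 0.215 to 0.312), while differently numbered ones gave -0.513 to 0.304, so whether the numbers pair the samples is not settled. The main fit did not pair them, and the replicate number was a block only in an alternative. The number of arrays limits the precision.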

Additional observations from a re-analysis of the deposited data

How the results depend on the processing

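Over all probes 1163 were called higher and 1217 lower. The counts, higher then lower, were 319 and 446 with the slide as a block, 3 and 2 within the slide holding both groups, 2311 and 2354 with arrays fitted one by one and the replicate as a random block, 764 and 680 in the authors' value table, and 406 and 365 by the methods' t-test, which found 5067 at an unadjusted p under 0.05. With normexp and the 75th percentile 781 were lower. Without CYGB+ replicate 1, array 1 the counts were 1978 and 2135, and without the 3 arrays that stood apart 2440 and 2562 (both chosen after seeing the data). Leaving out 1 replicate gave 230 to 1197 higher and 283 to 1186 lower. The replicate block raised the total from 2380 to 3057.

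Of the other forkhead genes 1 was higher with the random block, with the replicate block, and without the 3 arrays. For lower genes of that list the count was 1 with normexp and the 75th percentile and by the t-test, and 0 in both slide settings. With probes above background on all arrays the count was also 1, and FOXL1 was then not tested. Leaving out 1 replicate gave 0 to 1 higher and 0 to 2 lower.

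Genes of any list, 2 higher and 10 lower, came to 4 higher with the quantile-normalised processed signal and with the replicate block. They came to 1 higher with normexp and the 75th percentile, 1 higher and 3 lower with the slide block, 0 and 0 within the slide, 9 and 17 with the random block, and 0 and 1 by the t-test. Without CYGB+ replicate 1, array 1 there were 6 higher, and without the 3 arrays 7 and 17. The lower count was 5 with the processed signal and 75th percentile, with no filter and in the value table. Leaving out 1 replicate gave 0 to 4 higher and 1 to 10 lower. The replicate block also called KRT14 among the keratinocyte markers and changed no call in the FOXM1, FOXO, 6p25 and 20p11 lists.

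The 13 member probes had 268 alternative values, of which 233 moved by less than 1 SD between replicates of that probe. That SD includes the disagreeing spots of FOXM1 (0.56) and FOXO1 (0.51), so the measure is a loose one for them. FOXM1 counted 0 moved values while its difference ran from 0.04 to 0.73, and FOXO1 counted 1 while its difference ran from -0.93 to 0.16. FOXQ1, FOXA2 and FOXE1 kept their sign in all 20 alternatives that gave a value, and had no value in the authors' value table. FOXM1 kept its sign in all 20 too, and FOXA1, at -0.11 in the main fit, in all 21. The alternatives reuse the same arrays, so a kept sign does not set the called members apart. The causes were not tested. The CYGB+ level of FOXA2 is limited by its signal, close to background.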
